A study of Mus musculus with 7 samples.

Results

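The desmosome components examined here were the 10 genes *Dsg1a*, *Dsg1b*, *Dsg2*, *Dsg3*, *Dsc1*, *Dsc2*, *Dsc3*, *Dsp*, *Pkp1* and *Pkp3*. They were chosen by name and not by a cut on their values, though earlier results of these data were known. All 10 were found among the 23122 gene symbols analysed in mouse skin papillomas. The study asked how the transcription factor NANOG affects skin tumors made with DMBA, a carcinogen that mutates keratinocytes, and TPA, which drives their proliferation. RNA was sequenced from papillomas of 4 control (CTR) and 3 *Nanog*-overexpressing (TG) mice, each from a different C57Bl/6 mouse. All 7 mice carried the *Col1a1::tetO-Nanog* allele, were 8 to 10 weeks old when treatment began, and drank doxycycline (2 mg/ml) until the end. TG mice also carried *K5-rtTA*, in which the bovine keratin 5 promoter switches the allele on in the basal layer of stratified epithelia, and CTR mice lacked it. Papillomas were taken when the protocol finished or earlier at a humane endpoint, and the labels do not say which applied to a given mouse. They are bulk tissue, so fewer cells of a type and less RNA per cell cannot be told apart.

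Desmosomes are the spot-like junctions that rivet keratinocytes to each other and give the epidermis its mechanical strength. Desmogleins (Dsg) and desmocollins (Dsc) are cadherins that cross the membrane and bind those of the neighboring cell, plakoglobin and plakophilins (Pkp) bind their tails, and desmoplakin (Dsp) ties the plaque to keratin filaments. In the epidermis the cadherins change with differentiation: Dsg3, Dsc2 and Dsc3 are typical of the lower layers, and Dsg1 and Dsc1 of the upper layers.

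Values were FPKM, fragment numbers corrected for the length of the transcript and for the size of the library, which allow levels of different genes to be compared per length. The deposited files give no read numbers, and the width of their confidence intervals implied 10074859 to 15710562 reads on genes per papilloma, with CTR 3 and TG 1 the deepest. Precision differed between components, from 132 to 215 implied reads for *Dsg2* to 43977 to 73469 for *Dsp*. *Nanog* was 2.70, 2.84, 12.7 and 3.34 FPKM in CTR 1 to CTR 4 and 36.9, 57.4 and 66.9 FPKM in TG 1 to TG 3, so the groups did not overlap, yet limma did not call its log2 difference of 3.45 (adjusted p = 0.400). The epithelial genes *Cdh1*, *Krt5*, *Krt14*, *Trp63*, *Itga6* and *Itgb4* were present in all 7 papillomas, with a summed level of 6685 to 12915 FPKM. TG 3 stood apart: its log2 values correlated with those of other papillomas at r = 0.903 to 0.937 across genes, against 0.945 to 0.977 between the others. All 8 skeletal muscle markers were highest in TG 3, where they summed to 621 FPKM against 1.74 to 5.11 in the others, and *Ckm*, *Myh4*, *Tnnc2* and *Myl1* were at 0 in at least 1 CTR papilloma. Differences are therefore also given without TG 3.

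The 7 cadherin genes lie together on mouse chromosome 18 (GRCm38), in a run of 9 genes from 19960930 to 20604526 that spans 643597 bases. The desmocollins are on the minus strand, *Dsc3* at chr18:19960930-20002097, *Dsc2* at chr18:20030798-20059505 and *Dsc1* at chr18:20084703-20114773. The desmogleins follow on the plus strand, *Dsg1a* at chr18:20310873-20343353, *Dsg1b* at chr18:20376835-20409741, *Dsg3* at chr18:20510304-20541310 and *Dsg2* at chr18:20558116-20604526. The plaque genes are elsewhere, *Dsp* at chr13:38151294-38198577 on the plus strand, *Pkp1* at chr1:135871395-135919024 on the minus strand and *Pkp3* at chr7:141078229-141090510 on the plus strand. Neighbors in the run differed greatly in level. *Dsg4*, a desmoglein of hair, lies between *Dsg1b* and *Dsg3* and did not exceed 0.339 FPKM in any papilloma, whereas *Dsg3* next to it averaged 145 FPKM and *Dsg2* beyond that 1.77 FPKM. The map of the run plots these levels along the chromosome.

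**Figure D1:**
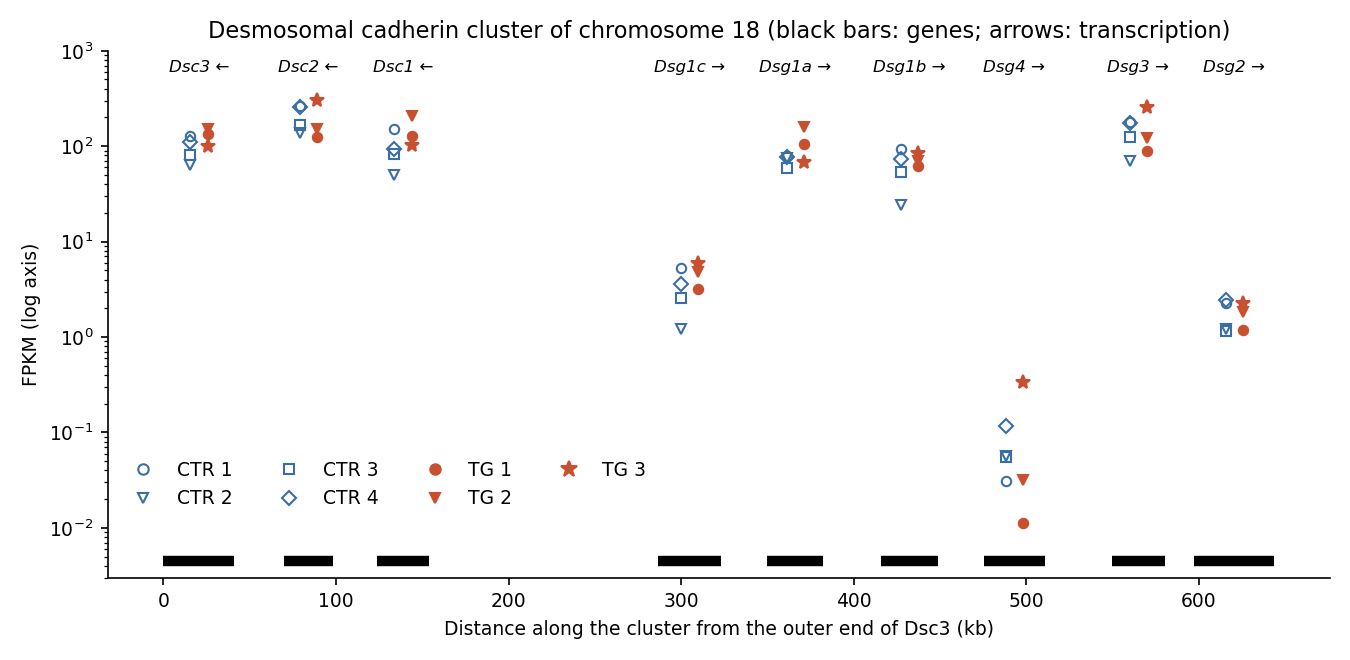
Level of each cadherin gene (FPKM, log scale) against its distance from the start of the run of 9 genes on chromosome 18, with 1 point per CTR or TG papilloma and bars at the bottom for the extent of the genes. *Dsg4* stays at or below 0.339 FPKM between *Dsg1b* and *Dsg3*, which average 66.1 and 145 FPKM.

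The *Dsg1* genes are hard to tell apart with short reads. Of all 40-base stretches of the *Dsg1a* transcript, 38.1% also occur in another gene, and 34.6% occur in *Dsg1b*. For *Dsg1b* the shares are 54.5% in another gene and 49.8% in *Dsg1a*. For *Dsg1c* they are 34.3% in another gene and 30.4% in *Dsg1a*. How the authors' counting divided 40-base reads between these genes is not stated. The separate values of *Dsg1a*, *Dsg1b* and *Dsg1c* are therefore uncertain, and their sum is given as well. No such stretch of *Dsc2*, *Dsc3*, *Dsp*, *Pkp1* or *Pkp3* occurs in another gene, and at most 0.551% of those of *Dsc1*, *Dsg2* and *Dsg3* do. Only exact matches were counted. The authors' alignment allowed mismatches and multiple hits, so reads could also fit stretches that are nearly alike.

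The RefSeq promoter table (GRCm38.p6) held 1 of the 10 components, *Dsp*, whose sequence is shown because *Dsp* was the most abundant component and because the E-box CAGGTG, read as CACCTG on the other strand, is the core to which the ZEB and SNAIL repressors of epithelial genes bind. The window covers chr13:38151044-38151343 on the plus strand, 250 bases before and 50 bases from the transcript start, with the E-box in capitals.
*Dsp* promoter: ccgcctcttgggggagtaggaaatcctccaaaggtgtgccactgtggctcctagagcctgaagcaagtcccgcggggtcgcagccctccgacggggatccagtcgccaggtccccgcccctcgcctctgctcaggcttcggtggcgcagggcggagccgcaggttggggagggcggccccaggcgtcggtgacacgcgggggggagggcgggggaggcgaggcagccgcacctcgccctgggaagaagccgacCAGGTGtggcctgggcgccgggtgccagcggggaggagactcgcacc
The E-box begins 3 bases downstream of the first transcribed base, and 20.2% of the 32851 promoters in the table hold it on either strand. TGANTCA, the AP-1 motif through which TPA-responsive genes are commonly activated, was in 7.81% of the promoters and was not found in this window. These matches describe the letters of the window only.

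9 of the 10 components were abundant. Averaged over the 7 papillomas, *Dsp*, the linker to keratin, led with 389 ± 89.2 FPKM (SD, n = 7). *Pkp1*, the plakophilin of upper epidermal layers, followed with 331 ± 52.9 FPKM, and *Dsc2*, the most widely expressed desmocollin, with 201 ± 72.5 FPKM. *Pkp3*, a plakophilin found throughout the epidermis, averaged 188 ± 33.6 FPKM and *Dsg3*, the desmoglein of basal keratinocytes, 145 ± 63.7 FPKM. The order then ran through *Dsc1* (117 FPKM), *Dsc3* (110 ± 31.0 FPKM), *Dsg1a* (89.2 FPKM) and *Dsg1b* (66.1 FPKM). These 9 genes were within the top 5.63% of the 12299 genes tested. *Dsg2*, a desmoglein of simple epithelia and the heart that is low in epidermis, ranked 9777 at 1.77 ± 0.585 FPKM.

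Neighbors in this order, which was set by the same values, were compared within each papilloma. *Pkp1* exceeded *Dsc2* and *Dsg1b* exceeded *Dsg2* in 7 of 7 papillomas, each with the smallest p the 2-sided exact sign-flip permutation test allows (0.0156, and 0.0703 after Benjamini-Hochberg adjustment over 9 neighboring pairs). For the other 7 pairs the adjusted exact permutation p ranged from 0.169 to 0.875. *Dsc1* and *Dsc3* were the closest, with a mean log2 difference of 0.014 ± 0.28 (SD, n = 7).

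The range over the 7 papillomas differed between components. The highest value was 1.70 times the lowest for *Pkp1*, 1.79 times for *Dsp* and 1.84 times for *Pkp3*, close to the median of 1.86 for the 931 genes that averaged 50 FPKM or more. It was 2.13 times for *Dsg2*, 2.42 times for *Dsc3*, 2.46 times for *Dsc2*, 2.70 times for *Dsg1a*, 3.69 times for *Dsg3*, 3.84 times for *Dsg1b* and 4.22 times for *Dsc1*. CTR 2 was low across the group, and without it the ratio of highest to lowest was 1.73 for *Dsg1b*, as for *Dsp*, and 2.52 for *Dsc1*. It was then 2.90 for *Dsg3* and unchanged at 2.70 for *Dsg1a*, 2.46 for *Dsc2* and 2.13 for *Dsg2*. The median of the genes that averaged 50 FPKM or more was 1.75 without CTR 2. 7 of the 10 components had their lowest value in CTR 2, and all 10 were below their own mean there, whereas CTR 2 held the lowest value of 30.2% of all tested genes and of 22.1% of genes above 50 FPKM. The summed level of the 10 components was 1044 FPKM in CTR 2, 1393 in CTR 3, 1521 in TG 1, 1771 in CTR 4, 1892 in TG 3, 1921 in CTR 1 and 1924 in TG 2. CTR and TG papillomas were thus interleaved. When each papilloma was scaled to the epithelial genes above, CTR 2 held the lowest value for 5 of 10 components. Scaling divided the values of CTR 2 by 0.822, and the share over all genes was not computed after it.

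**Figure D2:**
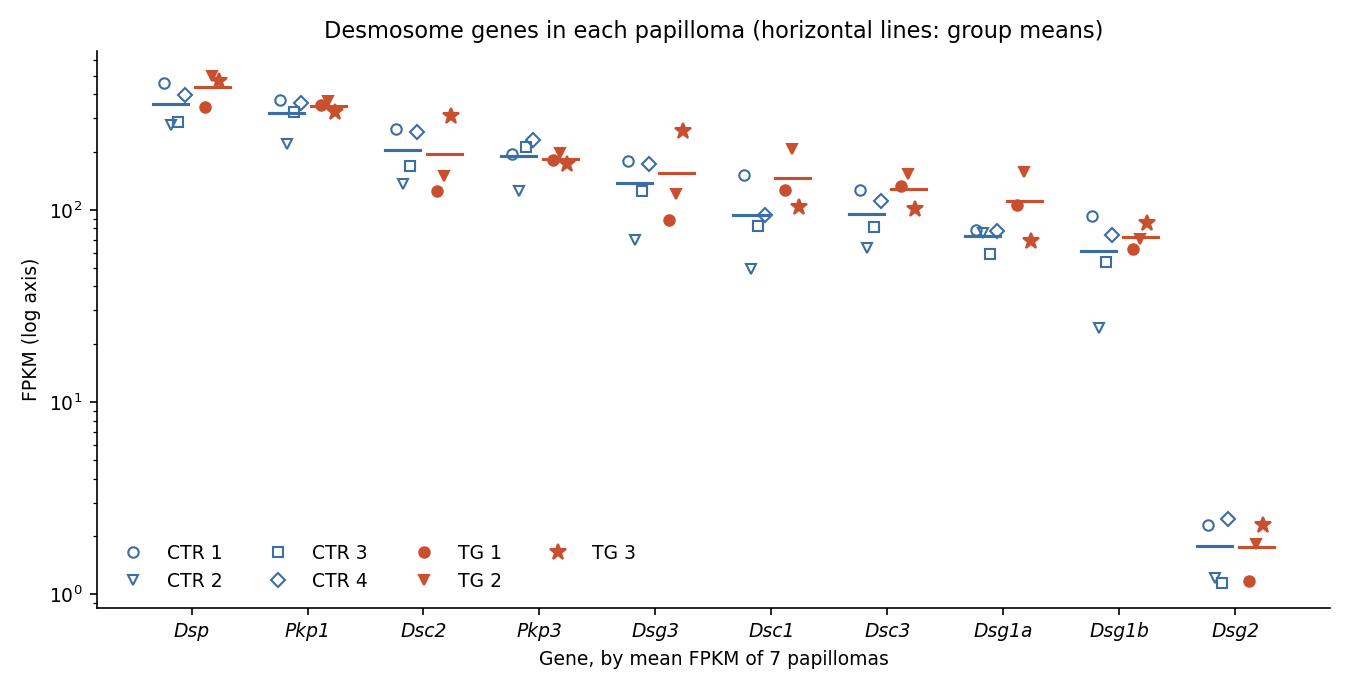
FPKM (log scale) of each desmosome component in the 4 CTR and 3 TG papillomas, with 1 point per papilloma and a line at each group's mean. CTR and TG points overlap for all 10 genes.

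No component passed the test across genes, which did not call *Nanog* either, so 0 calls do not show that levels were alike. limma was fitted to log2(FPKM + 0.5) for 12299 genes, and 0 of the 10 components passed at a Benjamini-Hochberg adjusted p under 0.05, as did 0 of all genes in each direction (0%). At an unadjusted p under 0.05, 0 components passed, against 4.86% of all genes higher and 1.96% lower in TG. This number was 1 without TG 3 (*Dsg1a*, against 5.23% of all genes higher and 4.35% lower) and 1 without CTR 1 (*Dsc1*, against 3.27% and 1.56%). For 0 components were all TG papillomas above or all below the CTR papillomas, against 4.93% and 2.23% of all genes. The TG mean was the higher one for 8 of 10 components (60% of all genes), with a median log2 difference of 0.23 against 0.061 over all genes. The number with a higher TG mean was 5 without CTR 2, 7 without TG 3, 7 after scaling to the epithelial genes, and 10 when only the papillomas of lower depth were compared. Over all genes the median log2 difference also moved, to 0.014, -0.030, -0.019 and 0.13 in that order. The share of all genes with a higher mean was not computed in these settings. When limma weighted papillomas by their estimated quality, with the lowest weight of 0.272 for TG 3, 0 components passed the adjusted p. *Dsg1a*, *Dsc1* and *Dsc3* then had an unadjusted p under 0.05, against 9.44% of all genes higher and 10.1% lower in that fit, and the lowest adjusted p was 0.0609 for *Dsg1a*.

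**Figure D3:**
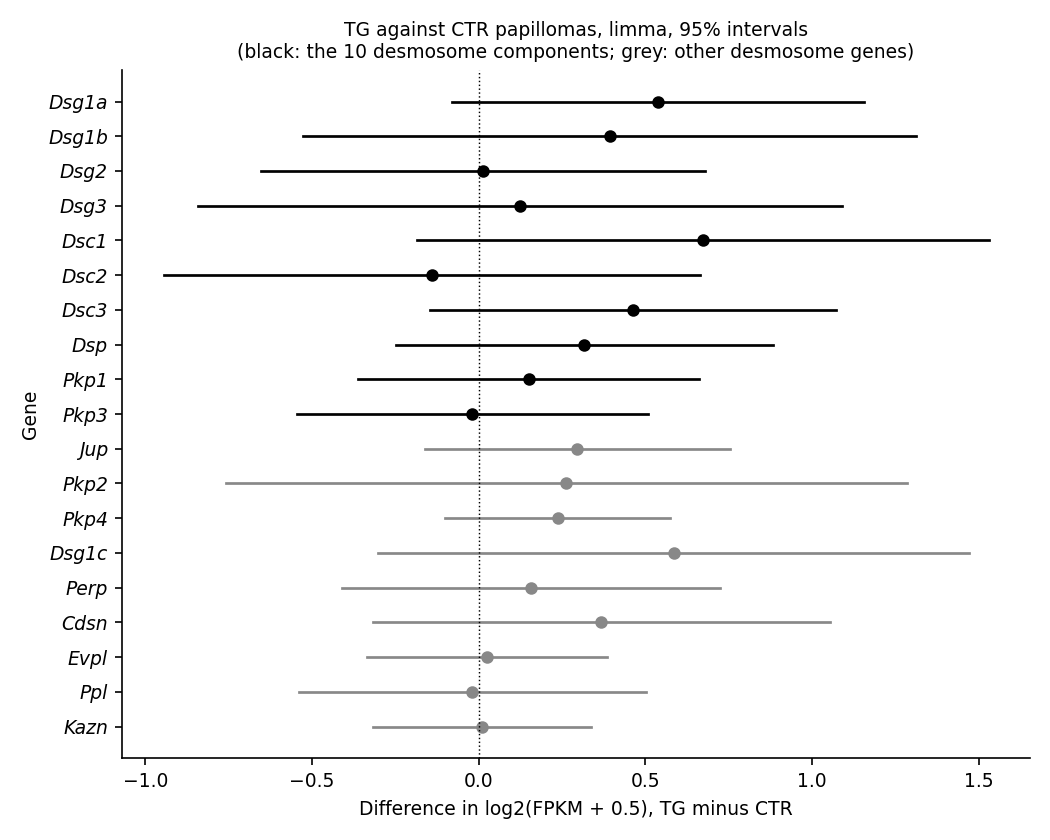
TG minus CTR difference of mean log2(FPKM + 0.5) for the 10 components and for the other desmosome genes tested (grey), each with its 95% confidence interval from limma. Every interval includes 0.

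Desmogleins hold neighboring cells together from the outside of the membrane. *Dsg1a*, a desmoglein of differentiating keratinocytes, was 78.9, 75.6, 58.6 and 77.7 FPKM in CTR 1 to CTR 4, and 106, 158 and 69.0 FPKM in TG 1 to TG 3. TG 1 and TG 2 were above every CTR papilloma, and TG 3 was within their range. The means were 72.7 ± 9.50 FPKM (SD, n = 4) in CTR and 111 ± 44.9 FPKM (SD, n = 3) in TG, with a log2 difference of 0.54 (SE 0.27, 95% interval -0.079 to 1.16, limma adjusted p = 0.799). The 2-sided exact permutation test, whose smallest p with 4 against 3 is 0.0286, gave p = 0.2. Without TG 3 the log2 difference was 0.84 (limma adjusted p = 0.232).

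*Dsg1b*, its close paralog, was 92.9, 24.2, 53.8 and 74.0 FPKM in CTR and 62.5, 70.3 and 85.2 FPKM in TG papillomas. The groups overlapped, with both the lowest and the highest value in CTR. The log2 difference was 0.39 (SE 0.41, limma adjusted p = 0.911), and it was 0.0053 without CTR 2 and 0.27 without TG 3. The ratio of *Dsg1a* to *Dsg1b* ran from 0.810 in TG 3 to 3.12 in CTR 2, a spread that the shared sequence leaves uncertain. The sum of *Dsg1a*, *Dsg1b* and *Dsg1c* still depends on that split, since FPKM are divided by transcript lengths that differ (5686, 3965 and 4088 bases). It was 177, 101, 115 and 155 FPKM in CTR and 172, 233 and 160 FPKM in TG papillomas. In 10 of the 12 possible TG and CTR pairs the TG papilloma had the higher sum, and the log2 difference was 0.47 (2-sided exact permutation p = 0.2), or 0.58 without TG 3.

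*Dsg3*, the pemphigus vulgaris antigen of basal keratinocytes, was 179, 69.6, 126 and 174 FPKM in CTR and 88.6, 121 and 257 FPKM in TG papillomas. TG 3 held its highest value and CTR 2 its lowest. The means were 137 ± 51.0 FPKM (SD, n = 4) in CTR and 156 ± 89.4 FPKM (SD, n = 3) in TG. The log2 difference of 0.12 (SE 0.43, 95% interval -0.84 to 1.09, limma adjusted p = 0.986) became -0.31 without TG 3. *Dsg2* was 2.29, 1.22, 1.15 and 2.45 FPKM in CTR and 1.17, 1.84 and 2.30 FPKM in TG papillomas. Its range was nearly the same in both groups, with a log2 difference of 0.013 (95% interval -0.65 to 0.68, exact permutation p = 0.914), or -0.15 without TG 3.

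Desmocollins are the partner cadherins. *Dsc1*, which marks the upper layers, was 153, 49.4, 82.6 and 93.6 FPKM in CTR and 126, 208 and 103 FPKM in TG papillomas. Only CTR 1 reached into the TG range. Its log2 difference of 0.67 was the largest among the 10 components (SE 0.38, 95% interval -0.19 to 1.53, limma adjusted p = 0.825), with TG higher in 10 of 12 pairs (2-sided exact permutation p = 0.229). Without TG 3 it was 0.89.

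*Dsc2* was 263, 137, 168 and 254 FPKM in CTR and 125, 150.4 and 308 FPKM in TG papillomas. TG 1 held the lowest and TG 3 the highest of the 7 values. The log2 difference was -0.14 (SE 0.35, 95% interval -0.94 to 0.66, limma adjusted p = 0.975), and -0.53 without TG 3. *Dsc3*, a desmocollin of basal keratinocytes, went the other way in the same papillomas. It was 126, 63.2, 81.0 and 112 FPKM in CTR and 133, 153 and 101 FPKM in TG papillomas, so that TG 1 and TG 2 were the highest and TG 3 was within the CTR range. Its log2 difference was 0.46 (SE 0.27, limma adjusted p = 0.826, exact permutation p = 0.2), and 0.63 without TG 3.

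The plaque proteins varied less. *Dsp* was 456, 277, 287 and 395 FPKM in CTR and 343, 497 and 470.3 FPKM in TG papillomas, higher in TG in 10 of 12 pairs. The log2 difference was 0.32 (SE 0.25, 95% interval -0.25 to 0.88, limma adjusted p = 0.861), or 0.25 without TG 3. *Pkp1* was 375, 220.4, 321 and 358 FPKM in CTR and 352, 366 and 322 FPKM in TG papillomas. The TG papillomas lay inside the CTR range, and without CTR 2 the log2 difference of 0.15 (limma adjusted p = 0.949) became -0.017, while without TG 3 it was 0.20. *Pkp3* was 195, 126, 213 and 231 FPKM in CTR and 182, 198 and 174 FPKM in TG papillomas. The TG papillomas again lay inside the CTR range, with a log2 difference of -0.019 (95% interval -0.54 to 0.51, limma adjusted p = 0.995, exact permutation p = 1), or 0.023 without TG 3.

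Ratios of components within a papilloma do not depend on the scaling of the library, and 6 were compared on the log2 scale after adding 0.5 FPKM to each side. The ratio of *Dsc2* to *Dsc3* was nearly constant in CTR papillomas, 2.08, 2.17, 2.08 and 2.28, a spread of 0.064 (SD) on the log2 scale, although the levels of both genes varied. TG 1 had 0.939, TG 2 had 0.983 and TG 3 had 3.06. Thus no TG papilloma was within the CTR range, but TG 1 and TG 2 were below it and TG 3 was above it. The mean log2 ratio was 0.60 lower in TG than in CTR, with a 2-sided exact permutation p of 0.314 (0.686 after Benjamini-Hochberg adjustment over the 6 ratios). Without TG 3 the TG minus CTR difference was -1.16, with an exact permutation p of 0.0667, the smallest that 4 against 2 allows. This p was not adjusted over the 6 ratios, and it leaves out the TG papilloma that lay on the other side of the CTR range.

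The desmogleins showed the same arrangement of papillomas. The ratio of *Dsg1a* plus *Dsg1b* to *Dsg3* was 0.958, 1.43, 0.893 and 0.873 in CTR papillomas, 1.90 in TG 1, 1.89 in TG 2 and 0.600 in TG 3. TG 1 and TG 2 were above all CTR papillomas and TG 3 was below them. The difference in mean log2 ratio was 0.34 (2-sided exact permutation p = 0.514, adjusted p = 0.771). Without TG 3, again the papilloma on the other side, it was 0.90 (exact permutation p = 0.0667, unadjusted and the smallest possible). As shares, *Dsg3* made up 33.9%, 33.9% and 61.2% of the summed FPKM of all 6 desmogleins in TG 1 to TG 3, against 40.5% to 52.4% in CTR papillomas. *Dsc2* made up 32.5%, 29.4% and 60.1% of the desmocollins in TG 1 to TG 3, against 48.5% to 55.4% in CTR papillomas. *Dsc3*, also typical of the lower layers, went the opposite way, with 34.6%, 29.9% and 19.7% in TG 1 to TG 3 against 23.3% to 25.3% in CTR papillomas. The 2 families had proportionally more *Dsg3* and *Dsc2* in TG 3 and less in TG 1 and TG 2 than any CTR papilloma, while the summed desmocollin level of TG 2 and TG 3 was alike at 511 and 512 FPKM.

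**Figure D4:**
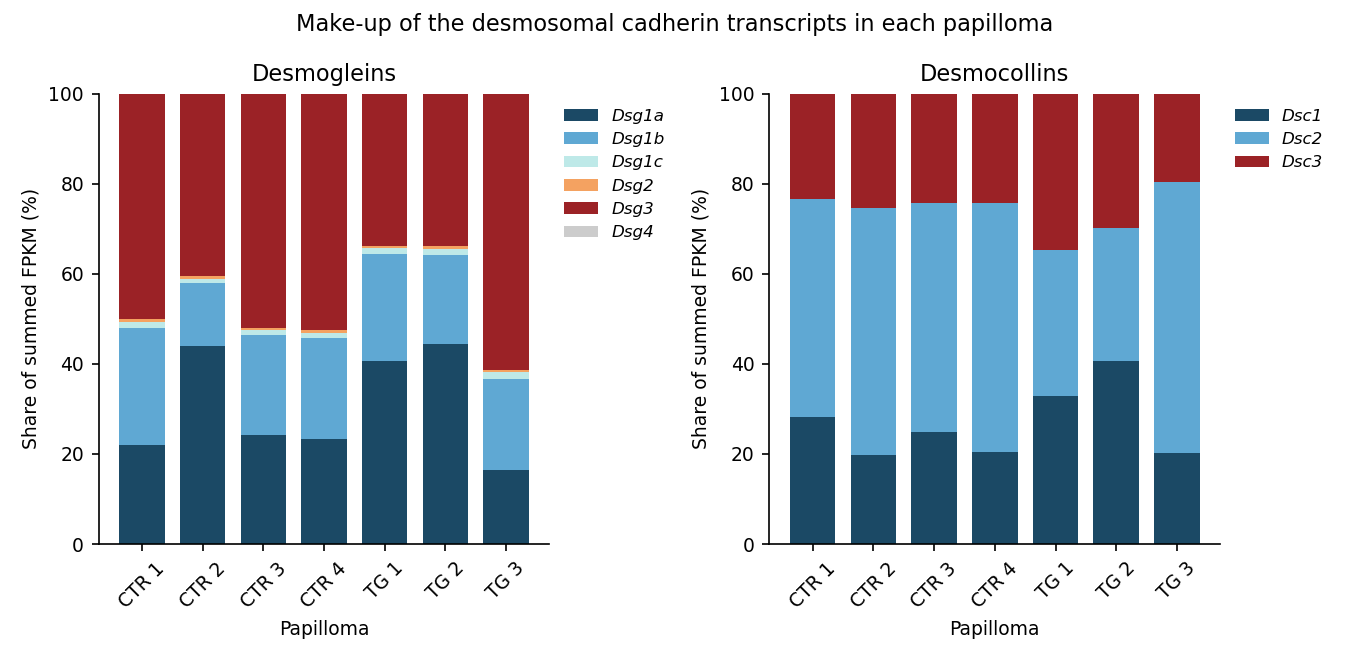
Share of each gene in the summed FPKM of the desmogleins and of the desmocollins (percent, stacked bars), 1 bar per CTR or TG papilloma. *Dsg3* and *Dsc2* take the largest shares in TG 3, 61.2% and 60.1%, and smaller shares in TG 1 and TG 2 than in any CTR papilloma.

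Markers of the differentiating epidermis were not uniform in these papillomas, with a higher mean in TG for 3 of the 6 tested and a lower mean for 3. Without TG 3, 5 of the 6 had a higher mean in TG, and the median log2 difference was 0.75 instead of -0.022. Over all genes the median was -0.030 without TG 3 and 0.061 with it. *Krt1*, the keratin of suprabasal cells, was 1517, 3309 and 133 FPKM in TG 1 to TG 3, and 187, 698, 470.3 and 807 FPKM in CTR 1 to CTR 4. It was highest in TG 2 and lowest in TG 3. *Ivl*, which encodes the cornified envelope protein involucrin, was 159, 108 and 36.4 FPKM in TG 1 to TG 3, and 17.7 to 26.8 FPKM in CTR. *Krtdap*, a secreted protein of differentiating keratinocytes, went the other way, at 4770.1, 3666 and 2689 FPKM in TG 1 to TG 3 and 3841 to 6890.1 FPKM in CTR. The 6 suprabasal and cornifying markers found, of 7 listed, summed to 4284 FPKM in TG 3 and to 7351 to 12269 FPKM in the other papillomas, with CTR 3 (11680.4), TG 2 (11928) and TG 1 (12269) the highest, and none was at 0. In TG 3 the 6 fibroblast markers summed to 678 FPKM (73.5 to 129 in the others), the 7 simple epithelial markers to 98.9 FPKM (29.7 to 38.5) and the 6 hair follicle markers to 23.0 FPKM (1.60 to 2.63), with *Krt71* and *Krt27* at 0 in 1 papilloma each and *Muc4* at 0 in CTR 1. The part of these cells, and of the muscle in TG 3, in the cadherin ratios was not tested.

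The other 4 ratios had no such arrangement. *Pkp3* over *Pkp1* lay between 0.516 and 0.664 in all 7 papillomas, and the log2 difference was -0.17 (2-sided exact permutation p = 0.171, adjusted p = 0.686). *Dsc1* over *Dsc3* differed by 0.21 (exact permutation p = 0.343, adjusted p = 0.686) and *Dsg2* over *Dsg3* by -0.11 (exact permutation p = 0.743, adjusted p = 0.891). *Dsp* over *Jup*, the gene of plakoglobin, differed by 0.022 (exact permutation p = 0.914, adjusted p = 0.914) and ran from 1.36 in CTR 3 to 2.29 in TG 3. Without TG 3 the differences were -0.18, 0.26, 0.16 and -0.11 in the order given, so that those of *Dsg2* over *Dsg3* and *Dsp* over *Jup* changed sign.

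**Figure D5:**
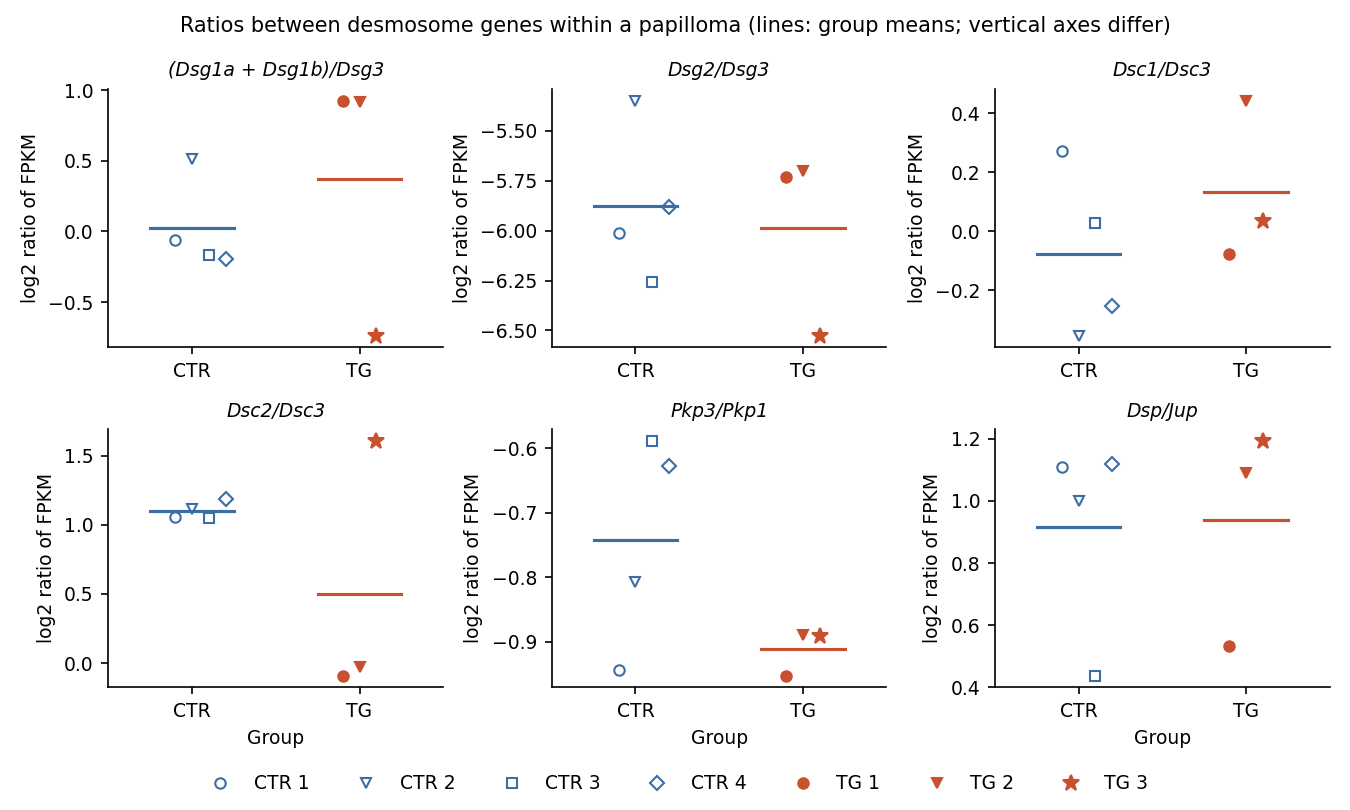
Log2 of 6 ratios between desmosome genes within a papilloma, with 1 point per CTR or TG papilloma and a line at each group's mean. For *Dsc2* over *Dsc3* the 4 CTR points nearly coincide, with TG 1 and TG 2 below and TG 3 above them.

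The rest of the desmosome gave a similar result. Of 10 further genes, 9 were tested and 0 passed the adjusted p. The TG mean was above the CTR mean for 8 (60% of all genes), with a median log2 difference of 0.24 (0.061 over all genes). *Jup*, whose product plakoglobin links cadherin tails to desmoplakin, was 211, 138, 212 and 181 FPKM in CTR and 237, 233 and 205 FPKM in TG papillomas (log2 difference 0.30, limma adjusted p = 0.842). *Perp*, a membrane protein that stabilizes desmosomes, was the most abundant at 1642 ± 263 FPKM (SD, n = 7), with a log2 difference of 0.16. *Cdsn*, which encodes the adhesive protein corneodesmosin of the cornified layer, was at 0.37. *Pkp4*, a plakophilin relative, was the only 1 of the 9 in which the groups did not overlap (7.16% of all genes in either direction). It was 11.9, 10.5, 10.5 and 12.1 FPKM in CTR and 14.9, 12.8 and 12.4 FPKM in TG papillomas, which put its log2 difference at 0.24 (limma adjusted p = 0.837, exact permutation p = 0.0571). *Dsg1c*, at 3.80 FPKM and uncertain because of its shared sequence, differed by 0.58. *Pkp2*, the plakophilin of heart and simple epithelia, differed by 0.26 at 0.570 FPKM. The plakins *Evpl* and *Ppl*, which link desmosomes to the cornified envelope, and *Kazn*, which binds periplakin, differed by 0.025, -0.019 and 0.0088. Without TG 3, 5 of the 9 had a higher mean, with a median of 0.29 (-0.030 over all genes), and *Pkp2* changed sign to -0.29.

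The other adhesion structures of keratinocytes likewise held no gene that passed the adjusted p. Over all genes, 60% had a higher mean in TG, with a median log2 difference of 0.061 (-0.030 without TG 3). At an unadjusted limma p under 0.05, 4.86% of all genes were higher and 1.96% lower in TG. Among the 9 adherens junction genes, 5 had a higher mean in TG and 1 an unadjusted p under 0.05, with a median of 0.15 (4 and -0.018 without TG 3). They ran from -0.034 for *Pvrl4*, which encodes nectin-4, to 0.58 for *Cdh3*, the gene of P-cadherin, and *Cdh1*, the gene of E-cadherin, was at -0.0032 (-0.21 without TG 3). Among the 6 hemidesmosome genes, which anchor basal cells to the basement membrane, 5 had a higher mean and 1 an unadjusted p under 0.05, with a median of 0.29 (3 and -0.018 without TG 3). They ran from -0.0098 for *Cd151* to 0.59 for *Col17a1*, the gene of collagen XVII. Of the 9 keratins, the filaments to which desmosomes attach, 8 had a higher mean in TG, with a median of 0.086, from -0.072 for *Krt6a* to 0.89 for *Krt1*. Without TG 3, 7 had a higher mean, with a median of 0.37, and *Krt6a* was at 0.047 and *Krt1* at 2.25. Of 6 transcriptional regulators of epidermal adhesion, 2 had a higher mean (3 without TG 3), with the lowest difference, -0.29, for *Ovol1*, and *Trp63*, the master regulator of stratified epithelia, was at 0.087.

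Outside all these lists, the genes whose profile over the 7 papillomas was closest to the mean profile of the 9 abundant components were *Ptpn12*, *Atrn*, *Zbtb39*, *Bmp2k* and *Dip2b*. Their root mean square distance from that profile ran from 0.0675 to 0.0947 on the log2 scale, against a median of 0.369 over 9414 candidates. The components themselves lay farther from it, from 0.139 for *Dsp* to 0.440 for *Dsg1a*. *Dsg3* at 0.411 and *Dsc2* at 0.400 were, like *Dsg1a*, beyond the median candidate, so the profile is an average that these components did not follow closely. *Ptpn12*, which encodes a tyrosine phosphatase, was 17.6, 8.51, 11.5 and 16.6 FPKM in CTR and 12.8, 16.7 and 17.4 FPKM in TG papillomas. Its lowest value was in CTR 2, where the profile used to choose it was also lowest (-0.70), so this follows from the choice.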

How the data were processed

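PolyA+ RNA (RNA integrity numbers 7.2 to 8.9 per the labels) went into strand-specific libraries that gave single reads of 40 bases. Per the submitters' processing notes, the authors used TopHat2 2.0.4, Bowtie 0.12.7, SAMtools 0.1.16 and Cufflinks 1.3.0 on GRCm38 (mm10) and deposited FPKM for each gene and papilloma, with confidence intervals and a status. FPKM are not counts, so no count model was used, and Cuffdiff, which needs aligned reads, was not run. The labels and the methods name different RNA kits. Starts in the files count from 0 and are printed 1-based.

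The files were joined by symbol and entry. 240 symbols with more than 1 entry were summed, and 162 of 23284 symbols with a failed estimate in any papilloma were left out. The 12299 genes averaging 0.5 FPKM or more across papillomas were fitted as log2(FPKM + 0.5) with limma 3.58.1 (R 4.3.3, variances moderated along a trend), with Benjamini-Hochberg adjustment and a threshold of 0.05. The added 0.5 shrinks the differences of low genes. Single values were compared by 2-sided exact permutation over the 35 splits of 7 papillomas into 4 and 3, and neighboring levels by exact sign flips. Shared 40-base stretches were counted in GENCODE transcripts on the same build. Python 3.11.15, numpy 2.4.6, pandas 2.3.3, scipy 1.17.1 and matplotlib 3.10.9 were used. The fit was tested on simulated data.

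The 10 components, the gene lists (other desmosome genes, adherens junctions, hemidesmosomes, keratins, regulators and cell type markers) and the tests were chosen with earlier results of these data known. Named genes were *Nanog*, the components, the other desmosome genes, the genes with the lowest and highest difference of each other list, *Cdh1*, *Trp63* and the 5 nearest profiles. The value of 1 such gene is left out here. Marker genes at 0, and those shown for all 7 papillomas, were named after their values were seen. The alternatives were other pseudocounts, filters and scalings, quality weights, no trend or robust moderation, a replicate block, other handling of entries, the papillomas of lower depth, and each papilloma left out in turn. The replicate numbers are shared by CTR and TG, but no label says that they mark a shared litter or batch, and same-numbered papillomas did not deviate together, so the main fit has no block.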

Additional observations from a re-analysis of the deposited data

Results flagged for a closer look

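In 27 values screened over the 4 CTR papillomas, 2 had a papilloma whose gap to the nearest other, divided by the whole range, was above Dixon's 95% critical value. Chance gives about 1 in 20. *Dsg1a* had its low value in CTR 3 (58.6 FPKM against 75.6 to 78.9 in the other CTR papillomas), with a gap of 0.854 of the range on the log2 scale. *Nanog* had its high value in CTR 3 (12.7 FPKM against 2.70 to 3.34), with a gap of 0.871 of the range. CTR 3 was also the deepest CTR papilloma, and the part of depth in these values was not tested.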

How the results depend on the processing

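The number of components called was 0 in all 21 alternatives of the limma fit, and the number with an exact permutation p under 0.05 was 0 in the 7 alternatives that could reach it. In the other 8 the smallest possible p was 0.0667 to 0.1, so they say nothing on this. Over all genes, quality weights called 49 genes higher and 36 lower, the papillomas of lower depth 1 higher, and leaving out 1 papilloma 0 to 9 higher and 0 to 8 lower, the highest counts without TG 3. At an unadjusted p under 0.05 the split of 598 higher and 241 lower became 403 and 551 with quantile normalization, 494 and 439 with upper-quartile scaling, and 1161 and 1248 with weights. Several differences changed sign. *Dsg2* was -0.0485 with upper-quartile scaling, -0.13 with quantile normalization, -0.0515 with scaling to epithelial genes and -0.0555 with weights. *Dsg3* was -0.25 and *Pkp2* -0.40 with weights. *Pkp3* was 0.0012 with quantile normalization, 0.0845 with the replicate block and 0.0552 at lower depth, where *Dsc2* was 0.0399, *Perp* -0.0011 and *Ppl* 0.29. *Evpl* was -0.0537, -0.0626 and -0.0305 with upper-quartile, epithelial and weighted fits, and *Kazn* -0.0658, -0.0736 and -0.0747 with upper-quartile, quantile and epithelial scaling. Leaving out 1 papilloma gave ranges of -0.15 to 0.22 for *Dsg2*, -0.31 to 0.45 for *Dsg3*, -0.53 to 0.12 for *Dsc2*, -0.0172 to 0.24 for *Pkp1*, -0.21 to 0.0845 for *Pkp3*, -0.0406 to 0.0899 for *Evpl*, -0.23 to 0.23 for *Ppl* and -0.0405 to 0.0743 for *Kazn*, and for the log2 ratios -0.25 to 0.16 for *Dsg2* over *Dsg3* and -0.14 to 0.22 for *Dsp* over *Jup*. The cause was not tested. For *Dsc2* over *Dsc3* the range was -1.16 to -0.31 and for *Dsg1a* plus *Dsg1b* over *Dsg3* 0.067 to 0.90, and adding *Dsg1c* to the latter, chosen after seeing the data, gave 0.35 (exact permutation p = 0.514). With the replicate number as a block, in which CTR 4 has no partner, 0 genes were called, and 505 were higher and 170 lower at an unadjusted p under 0.05. Same-numbered papillomas deviated from their group means with correlations of -0.19 to 0.043, other pairs with -0.22 to 0.31. With 4 and 3 papillomas, 1 of which stood apart, even the difference of *Nanog* (3.45, limma adjusted p = 0.400) was not called, so large differences could be missed too, and *Dsg2* rests on few reads.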

Other observations

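The markers of other cell types gave no gene that passed the adjusted p. The 6 leukocyte markers summed to 623 to 1823 FPKM in CTR and to 1674 to 4233 FPKM in TG papillomas. *S100a8*, a neutrophil alarmin that keratinocytes also make, alone was 307 to 860 FPKM in CTR and 752 to 2257 FPKM in TG. Of the 5 tested, 4 had a higher mean in TG and 1 a lower mean, with a median difference of 1.15 on the log2 scale. They ran from -0.12 for *Cd68* to 1.32 for *S100a8*. The 5 endothelial markers summed to 8.14 to 14.1 FPKM in CTR and to 11.3 to 27.6 FPKM in TG papillomas, with a median of 0.62. Of the 5 adipocyte markers only *Fabp4* was tested, at -0.31, and *Adipoq*, *Plin1*, *Lep* and *Cidec* were at 0 in all 4 CTR papillomas. *Plin1* and *Cidec* were also at 0 in TG 1 and TG 2, and *Adipoq* in TG 2. Of the 5, 4 were highest in TG 3. The medians were 2.37 for muscle, 0.87 for fibroblast, 1.08 for hair follicle, 0.92 for simple epithelial, -0.022 for suprabasal and 0.081 for epithelial reference genes, in the first 4 with every listed gene highest in TG 3. Without TG 3 they were 0.30, -0.086, -0.017, -0.044, 0.75 and -0.034, and 0.34 for leukocyte and 0.31 for endothelial markers. Over all genes the median was 0.061, and -0.030 without TG 3.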
